A study of Homo sapiens with 12 samples.

Results

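The interferon-response genes described here are 44 genes taken by symbol from a list of genes known to be induced by interferons, and all 44 were found among the 38516 genes of the deposited table. The genes were listed by symbol rather than by a measured threshold, but with earlier results of these data known. RNA was sequenced from 12 libraries of KYSE150 and KYSE510, established human lines of esophageal squamous cell carcinoma grown in RPMI medium with serum. The 4 groups of 3 libraries were control KYSE150, HCP5-silenced KYSE150, control KYSE510 and HCP5-silenced KYSE510, where HCP5 is a long non-coding RNA gene of the major histocompatibility region. The labels name no interferon or virus given to any group, so the values are levels without a named stimulus. The silencing and control reagents are not named by the labels beyond titles that begin with sh, and what the controls carried is not given. The labels do not say whether replicates were separate cultures, so p-values measure the spread between these libraries, which may be technical.

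Type I and type III interferons bind cell-surface receptors whose kinases phosphorylate STAT2, which joins IRF9 in a complex that binds interferon-stimulated response elements in promoters. The induced genes include sensors of viral RNA, enzymes that degrade RNA, proteins that block viral entry, translation or release, the ubiquitin-like modifier ISG15 with its enzymes, and chemokines that draw T cells. Epithelial and tumor cells can express some of these genes at a low tonic level without added interferon, and the level differs between cell lines.

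HCP5 was measured first, as a check of the labels. It was at 0.779, 0.745 and 0.786 RPKM (a read count divided by exon length and by library depth) in KYSE150 control replicates 1 to 3 and at 0.315, 0.418 and 0.579 in the silenced libraries. In KYSE510 it was at 0.914, 1.85 and 1.40 RPKM in the controls and at 0.505, 0.951 and 0.948 in the silenced libraries. Its mean was lower after silencing in both lines and the value was lower in 3 of 3 pairs of libraries with the same replicate number in each, but the KYSE510 groups overlapped and neither change passed limma's test (adjusted p = 0.267 in KYSE150 and 0.646 in KYSE510). Depth ran from 20035025 to 28202422 recovered reads per library. All 8 squamous epithelial markers were found, with summed levels of 981.6 to 2926 RPKM, while the 7 leukocyte markers in the table summed to at most 0.412 RPKM in any library. The 7 fibroblast and endothelial markers summed to 0.173 to 0.255 RPKM in KYSE150 controls and 1.65 to 2.93 in KYSE510 controls. Of the 7, 2 (CDH5 and COL1A1) were high enough to test, and only in KYSE510 libraries, so they had to differ. Both were called higher in KYSE510 (median log2 difference 1.32), as were 28.3% of all genes tested. The median log2 change of the squamous markers after silencing was 0.57 in KYSE150 and 0.30 in KYSE510, with 0 of 8 past the threshold in either; with the replicate number as a block, 7 of 8 were called higher in KYSE150, where 6.7% of all genes passed, and 1 of 8 (KRT14) in KYSE510, where 0.112% did. The part of these markers in the results was not tested.

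The sequences that this family is known for stand just upstream of the genes. The letters GAAANNGAAA, or TTTCNNTTTC on the other strand, make up the core of the interferon-stimulated response element. RefSeq promoter windows on GRCh38.p14 were matched for 34 members, DDX58 under its newer symbol RIGI, and in the 250 bases upstream of a start site 22 of the 34 (64.7%) held these letters on either strand. The same letters stood upstream of 3.71% of all 27305 genes in the table of windows. The letters TTCNNNGAA, the core of the gamma-activated site, stood upstream of 10 of the 34 (29.4%) and of 8.09% of all genes. A match describes the letters and is not a bound site. Of each printed stretch of 30 bases, read on the gene's strand, the capitals mark the response element core. The first 4 belong to members that were far higher in KYSE510:
IFITM1, chr11:313990-314019, + strand: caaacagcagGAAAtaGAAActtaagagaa
GBP1, chr1:89065316-89065345, - strand: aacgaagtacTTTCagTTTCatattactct
HERC5, chr4:88457035-88457064, + strand: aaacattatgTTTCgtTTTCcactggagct
BST2, chr19:17405735-17405764, - strand: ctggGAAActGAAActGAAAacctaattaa
Those of IFIT1, IFIT3 and IFIT5, neighbours on chromosome 10, are shown because these genes went different ways in the comparisons:
IFIT1, chr10:89392510-89392539, + strand: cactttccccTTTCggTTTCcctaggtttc
IFIT3, chr10:89332468-89332497, + strand: gttccatcagTTTCacTTTCctttcccctt
IFIT5, chr10:89414538-89414567, + strand: cttacgtttagTTTCgaTTTCttaagtttc
ISG15 and SAMD9 carried the letters too and did not pass the test between the lines:
ISG15, chr1:1013380-1013409, + strand: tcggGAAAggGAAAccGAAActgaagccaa
SAMD9, chr7:93118096-93118125, - strand: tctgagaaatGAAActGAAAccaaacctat
In BST2 and ISG15 the capitals cover 2 overlapping copies. The stretches of IFITM1, GBP1, IFIT3 and ISG15 lie inside the spans that the deposited table gives for these genes and upstream of a RefSeq start, for IFITM1 the one at 314040. Among members with a window, CMPK2, CXCL11, DDX58, DTX3L, HERC6, IFI35, IRF1, IRF9, OAS1, SAMD9L, STAT2 and XAF1 had no such letters in it.

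KYSE510 expressed more of the 44 genes than KYSE150 did. In KYSE150 control cells 18 members had a mean of at least 1 RPKM, 22 were under 0.5 RPKM, and 4 (IFI44L, CMPK2, CXCL10 and IDO1) had 0 reads in all 3 libraries. In KYSE510 control cells 30 members reached 1 RPKM, 13 were under 0.5, and none was at 0 in all 3. The summed level of the 44 genes was 121.1 to 184.3 RPKM in KYSE150 controls and 209.4 to 315.2 in KYSE510 controls, so these ranges did not overlap. That separation rests on IFITM1, at 0.271 to 0.734 RPKM in KYSE150 controls and 54.8 to 64.1 in KYSE510 controls. Without this gene the summed ranges would overlap. Levels between genes are compared here as RPKM, which is per length.

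**Figure D1:**
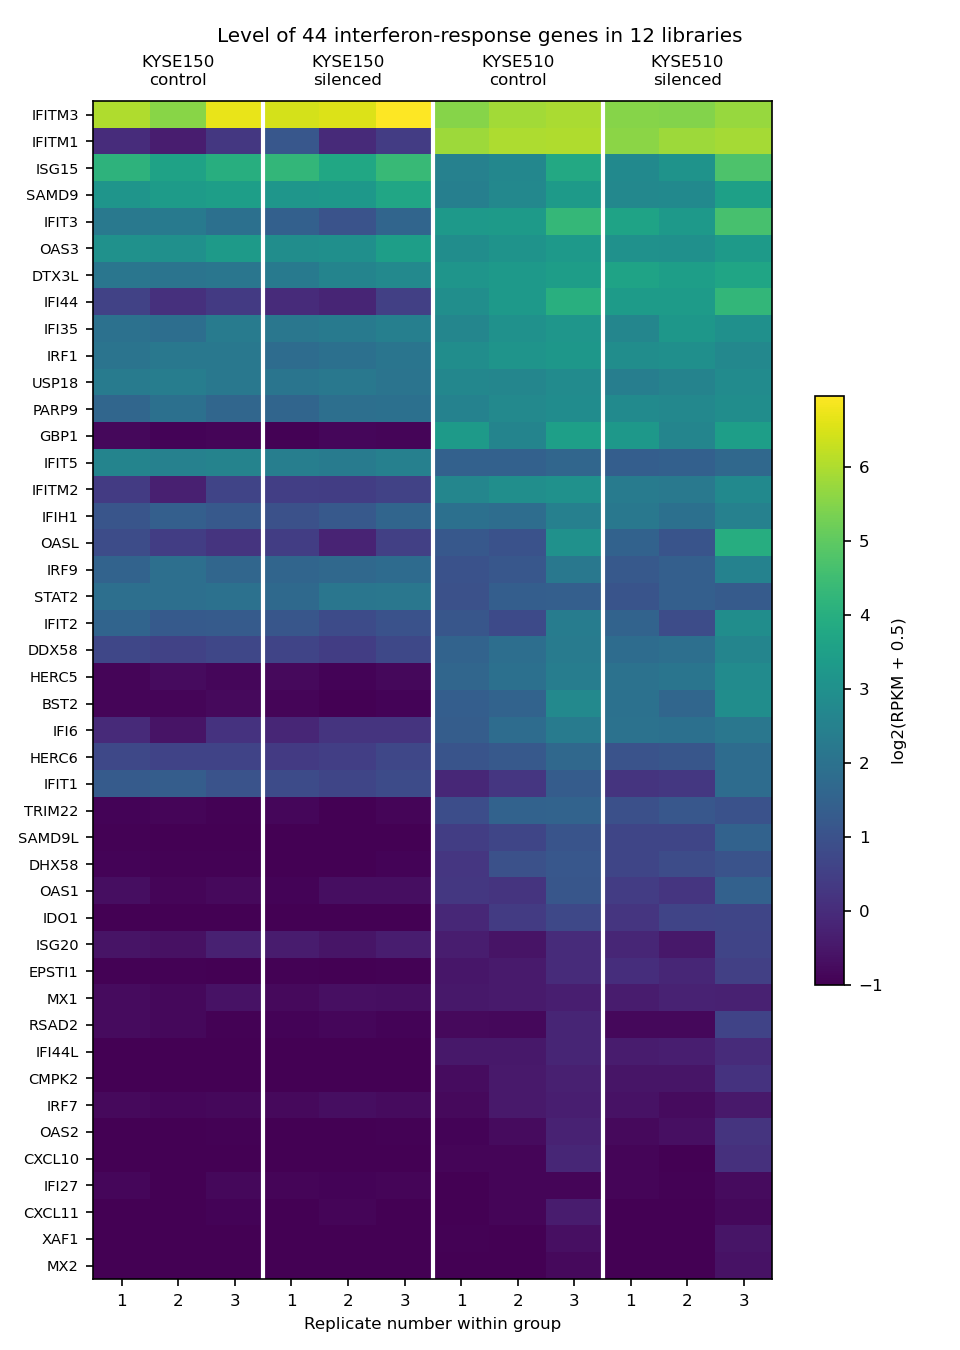
Level of each of the 44 genes (vertical axis) in each of the 12 libraries (horizontal axis, replicate number within the 4 groups), as log2(RPKM + 0.5) on the color scale, ordered by mean level. IFITM3 is bright in every library, IFITM1 and GBP1 change between the lines, and the replicate 3 columns of KYSE510 are brighter than their neighbours for most genes.

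IFITM3, which blocks the fusion of viral and endosomal membranes, had the highest mean in KYSE150 controls, at 71.2 ± 28.7 RPKM (SD, n = 3). ISG15 came next at 14.7 ± 2.87, then SAMD9, an antiviral restriction factor, at 9.57 ± 1.09, and OAS3, which makes the 2'-5' oligoadenylates that activate RNase L, at 8.24 ± 1.18. SAMD9 and OAS3 lay within their spread of each other. The order changed in KYSE510 controls, where IFITM1 led at 60.5 ± 5.04 RPKM and IFITM3 followed at 54.5 ± 8.51, again within their spread. IFIT3 was at 12.7 ± 5.75, IFI44 at 10.7 ± 4.43, DTX3L at 9.38 ± 1.05 and GBP1 at 8.60 ± 2.72 RPKM. The chemokines CXCL10 and CXCL11 stayed at 0.581 RPKM or below in all 12 libraries.

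Of the 44 genes, 31 passed the filter for testing (at least 0.5 RPKM in at least 3 libraries) and 13 did not. Between control cells of the lines, 21 tested members were higher in KYSE510 and 2 were lower by limma on log2(RPKM + 0.5) with Benjamini-Hochberg adjustment over all 17823 genes tested. The background was large, since 62.0% of all genes tested passed in this comparison, 28.3% higher in KYSE510 and 33.7% lower. The median difference was 1.20 (log2) over the tested members and -0.07 over all genes. Without the filter, the median over the members was 0.62. For 8 members (OAS1, DHX58, HERC5, SAMD9L, BST2, TRIM22, GBP1 and IDO1) only KYSE510 libraries carried them past the filter, so these had to differ. The other 23 members reached the filter on KYSE150 libraries alone, and 13 of them were called higher in KYSE510 and 2 lower. Over all 44 members with no filter, 35 had a higher mean in KYSE510, 30 were higher without overlap of the 3 and 3 libraries, and 2 were lower without overlap. Shares over all genes with no filter were not computed. Of the 31 tested members, 22 were higher and 2 lower without overlap, beside 28.5% and 35.5% of all genes tested.

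**Figure D2:**
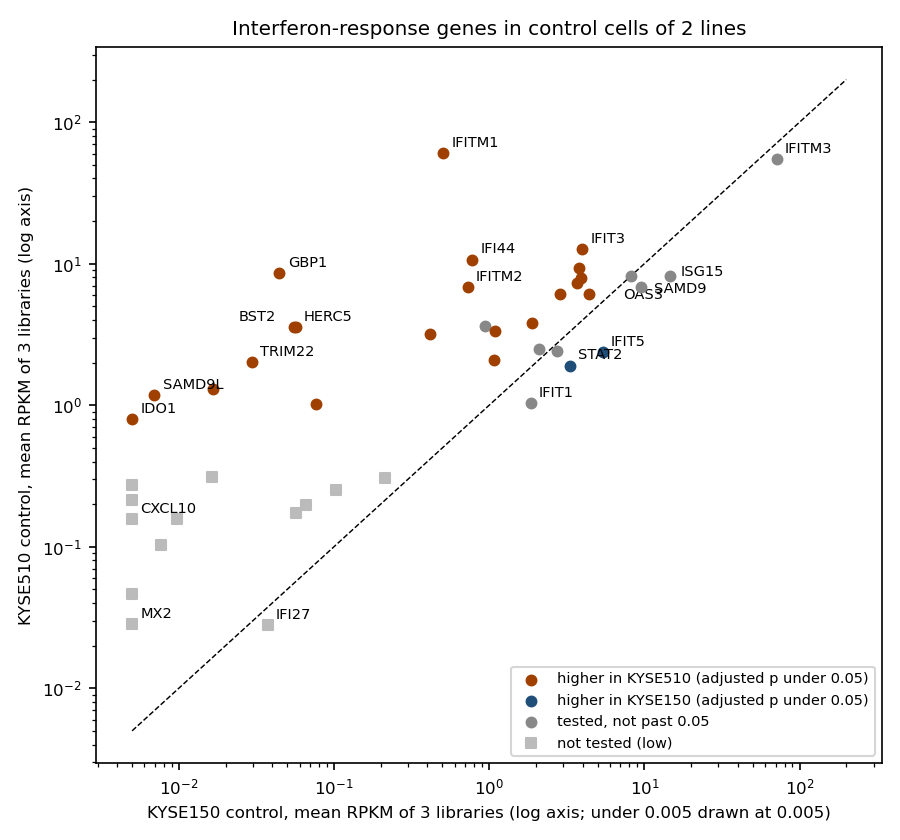
Mean RPKM of each member in control KYSE150 (horizontal, log axis) and control KYSE510 cells (vertical, log axis), 3 libraries each; the dashed line marks equal levels and squares mark members too low to test. Most points lie above the line, among them IFITM1 (60.5 against 0.504 RPKM), while IFIT5 and STAT2 are among those below it.

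Of the 4 membrane and entry effectors, 3 were called higher in KYSE510, beside 28.3% of all genes. BST2 among them had reached the filter on KYSE510 libraries alone, so it had to differ. IFITM1 had the largest difference of the 31 tested members on the log2(RPKM + 0.5) scale. As a ratio of pooled RPKM, GBP1 at 195 and SAMD9L at 180 exceeded IFITM1 at 118.5. IFITM1, an interferon-induced membrane protein that acts at the cell surface, was at 0.508, 0.271 and 0.734 RPKM in KYSE150 controls and at 54.8, 62.7 and 64.1 in KYSE510 controls. All KYSE510 libraries were far above all KYSE150 libraries, and the log2 difference was 5.95 (SE 0.26, adjusted p = 5.83e-09). IFITM2, its neighbour, went from 0.809, 0.316 and 1.06 to 5.77, 7.18 and 7.66 RPKM, a log2 difference of 2.63 (SE 0.22, adjusted p = 1.29e-06). IFITM3 was instead high in both lines, at 64.5, 46.5 and 103 RPKM in KYSE150 and 44.9, 57.7 and 61.0 in KYSE510. These overlapped, and the difference of -0.32 did not pass (adjusted p = 0.277); without KYSE150 control replicate 2 it was -0.59 and passed (adjusted p = 0.0368). The table's exons of IFITM1 and IFITM2 share 351 bases on the same strand, 32.5% of IFITM1, and the 3 genes are close paralogs, so the split of reads among them is uncertain. BST2, tetherin, which holds budding virus at the cell surface, had 4 reads in all KYSE150 controls and 314 in KYSE510 controls. Its levels were 0.0446, 0.0435 and 0.0787 against 2.12, 2.37 and 6.17 RPKM, a log2 difference of 2.73 (SE 0.35, adjusted p = 4.20e-05).

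Of 12 GTPases and other antiviral effectors, 5 were tested and 4 called higher in KYSE510, beside 28.3% of all genes, while SAMD9 did not pass. GBP1, TRIM22 and SAMD9L had reached the filter on KYSE510 libraries alone. GBP1, a guanylate-binding GTPase that coats intracellular pathogens, had 14 reads over the KYSE150 controls (0.0600, 0.0293 and 0.0441 RPKM) and 3317 over the KYSE510 controls (9.53, 5.53 and 10.7 RPKM). Its log2 difference was 4.01 (SE 0.24, adjusted p = 7.34e-08). IFI44, a cytoplasmic protein induced by interferon, went from 0.980, 0.574 and 0.778 to 7.14, 9.30 and 15.7 RPKM (log2 difference 3.07, SE 0.31, adjusted p = 5.13e-06). TRIM22, an E3 ubiquitin ligase that restricts viruses, was at 0.0294 ± 0.0133 against 2.02 ± 0.587 RPKM (log2 difference 2.22, adjusted p = 3.35e-07). The libraries of the lines did not overlap for any of these 3 genes. For genes near 0 in KYSE150 the log2 difference depends on the pseudocount: with 0.1 in place of 0.5 it was 5.86 for GBP1, 4.51 for HERC5 and 4.39 for BST2, and each still passed.

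For the 4 members with 0 reads in KYSE150 controls only a bound can be given, set by a floor of 3 reads over the group. IFI44L, with 217 reads in KYSE510 controls, was at least 59.6-fold higher there. IDO1, which breaks down tryptophan, had 205 reads and was at least 56.3-fold higher. CMPK2, a mitochondrial nucleotide kinase, was at least 19.8-fold higher with 72 reads, and CXCL10 at least 4.12-fold with 15. The bound for CXCL10 rests on replicate 3, which held 13 of the 15 reads. SAMD9L had 3 reads against 656, a ratio of pooled RPKM of 180 with an exact 95% interval of 61.3 to 875 that covers counting error only.

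The ISG15 system was split. ISG15, the modifier itself, was at 17.1, 11.5 and 15.4 RPKM in KYSE150 controls and 5.16, 5.97 and 13.4 in KYSE510 controls, a difference of -0.91 that did not pass (adjusted p = 0.112). HERC5, the main ligase that attaches ISG15, was at 0.0419, 0.0818 and 0.0462 RPKM in KYSE150 controls and at 2.60, 3.32 and 4.73 in KYSE510 controls, with no overlap (log2 difference 2.83, SE 0.22, adjusted p = 7.68e-07). HERC5 had reached the filter on KYSE510 libraries alone, so it had to differ. Its neighbour HERC6 differed less, from 1.07 ± 0.0778 to 2.07 ± 0.606 RPKM (adjusted p = 0.0136), and missed the threshold without KYSE510 control replicate 3 (adjusted p = 0.0619). USP18, which removes ISG15 and restrains the interferon receptor, was 0.45 higher in KYSE510 on the log2 scale (adjusted p = 0.0041).

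All 3 RNA sensors were higher in KYSE510. DDX58 encodes RIG-I and was at 1.14, 0.985 and 1.13 RPKM in KYSE150 controls and 2.37, 3.20 and 4.50 in KYSE510 controls (log2 difference 1.25). IFIH1 encodes MDA5 and was 0.84 higher, and DHX58, which encodes LGP2, was at 0.0167 ± 0.00805 against 1.29 ± 0.541 RPKM. Their libraries did not overlap and all 3 passed the test (adjusted p from 1.42e-05 to 0.0042), where 28.3% of all genes were called higher. DHX58 had reached the filter on KYSE510 libraries alone, so it had to differ. PARP9 and DTX3L, which form a complex of an ADP-ribosyltransferase and an E3 ligase, lie head to head on chromosome 3 and were higher by 0.98 and 1.20. They share 217 exon bases on opposite strands, and whether counting used strand is not given in the sources used here.

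Among the 31 tested, IFIT5 and STAT2 were the members called lower in KYSE510. IFIT5, an RNA-binding protein of the IFIT family, was at 5.53, 5.16 and 5.45 RPKM in KYSE150 controls and at 2.27, 2.25 and 2.62 in KYSE510 controls (log2 difference -1.03, SE 0.10, adjusted p = 3.40e-06). STAT2 was at 3.28, 3.24 and 3.38 against 1.45, 2.09 and 2.16 RPKM (log2 difference -0.68, SE 0.15, adjusted p = 0.0024). The libraries did not overlap for either gene. Of the 4 transcription factors 3 were tested, and 1 was called higher and 1 lower, beside 28.3% and 33.7% of all genes. IRF1, which binds response elements on its own, was at 3.65, 4.07 and 4.01 RPKM against 7.0, 8.17 and 8.69 (log2 difference 0.94, SE 0.11, adjusted p = 1.67e-05). IRF9, the DNA-binding part of the complex with STAT2, was at 2.37, 3.26 and 2.62 against 1.49, 1.72 and 4.04 RPKM, overlapping groups whose difference of -0.25 did not pass (adjusted p = 0.553). Of its counted exon length, 48.4% is shared with another gene on the same strand, so reads there cannot be assigned to IRF9 alone. IRF7, the amplifier of interferon production, was too low to test, with at most 0.290 RPKM in any library.

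Some neighbouring genes of the same family differed in opposite ways or by very different amounts between the lines, and the examples below were picked for that. Other neighbours went the same way: IFI44 and IFI44L, MX1 and MX2, and IFITM1 and IFITM2 all had higher means in KYSE510. OAS2, beyond OAS3, was higher there like OAS1. Of the genes below, OAS1, SAMD9L and HERC5 had reached the filter on KYSE510 libraries alone. On chromosome 10, within 89283694 to 89421001 of GRCh38, IFIT3 was 1.49 higher in KYSE510, IFIT5 1.03 lower on the log2 scale, and IFIT1 and IFIT2 did not pass. On chromosome 12, OAS1 was at 0.0768 ± 0.0359 against 1.02 ± 0.583 RPKM while OAS3, starting at 112938352 just beyond the end of OAS1 at 112933222, was at 8.24 ± 1.18 and 8.13 ± 1.12 and did not pass. On chromosome 7, SAMD9 was at 8.37, 9.86 and 10.5 RPKM in KYSE150 and 4.95, 6.03 and 9.55 in KYSE510, while its paralog SAMD9L, next to it, went from 0.0140, 0.00683 and 0 to 0.856, 1.09 and 1.59. On chromosome 4, HERC6 at 88378739 to 88443111 was expressed in both lines and HERC5 at 88457117 to 88506163 nearly only in KYSE510. Reads of such paralogs can be split or lost in counting, which these files cannot show.

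The same contrast between silenced libraries gave 22 members higher in KYSE510 and 3 lower among the 31, where 64.1% of all genes passed, 24.2% higher and 39.8% lower. The median difference over the tested members was 1.03 there.

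The libraries numbered 3 of KYSE510 stood apart for this gene set. Replicate 3 had the highest of the 3 levels for 43 of the 44 members in the control group, for 39 in the silenced group and for 38 in both. Among the 31 tested members these counts were 31, 27 and 27, and over all genes tested replicate 3 was the highest for 43.1%, 39.2% and 24.2%. In KYSE150 the counts were 14, 22 and 8 of the 44. They were 9, 20 and 6 of the 31 tested, beside 55.1%, 49.8% and 35.4% of all genes tested. OASL, an OAS-like protein that enhances RIG-I signaling, was at 1.78, 1.51 and 7.65 RPKM in KYSE510 controls and at 2.31, 1.58 and 15.0 in the silenced libraries. ISG15 was at 5.16, 5.97 and 13.4 and at 6.42, 8.04 and 26.1. RSAD2, viperin, an antiviral enzyme that makes a chain-terminating nucleotide, was at 0.0774, 0.0573 and 0.383 RPKM and then at 0.0604, 0.0588 and 1.02.

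In each of these genes replicate 3 alone was high, in control and silenced cells alike. Tested members at least 2-fold above the mean of replicates 1 and 2 in both groups, on the log2 scale, numbered 7 (BST2, IFIT1, IFIT2, IFIT3, IRF9, ISG15 and OASL), among 39 such genes of 17823 (0.219%). IFIT1 was at 0.424, 0.703 and 1.99 RPKM in KYSE510 controls and IFIT2 at 1.69, 1.22 and 4.63. These proteins bind viral RNA or block its translation. Other members differed less between these libraries: IFITM1 was at 54.8, 62.7 and 64.1, and STAT2 at 1.45, 2.09 and 2.16. Of 49 other interferon-induced genes tested, replicate 3 was the highest in both groups for 30. The other genes among the 39 included the chemokine CCL5 and the squamous differentiation genes IVL, SPRR1B, SPRR2D, KRT6B, S100A7, PI3 and SERPINB4, named after their values were seen. Of the 8 squamous epithelial markers given above, replicate 3 was the highest for 2 in KYSE510 controls, for 7 in the silenced libraries and for 2 in both. Replicate 3 also had the most reads of its group in both KYSE510 groups; the part of these in the result was not tested. Leukocyte markers summed to 0.412 and 0.398 RPKM in these libraries and to 0.137 to 0.410 in the other KYSE510 libraries.

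**Figure D3:**
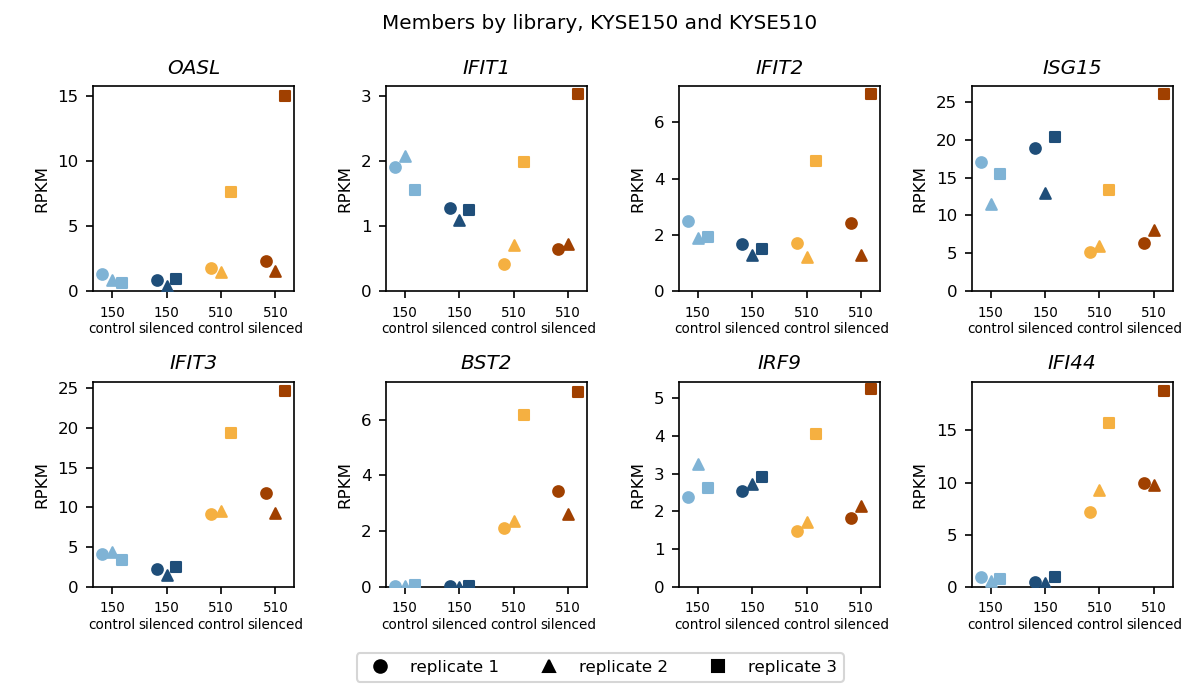
RPKM of 8 members in each of the 12 libraries (vertical axis, starting at 0; horizontal axis, the 4 groups), with circles for replicate 1, triangles for replicate 2 and squares for replicate 3. In KYSE510 the squares sit above the other symbols in control and silenced cells, as for OASL at 7.65 and 15.0 RPKM.

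Leaving out both of these libraries changed the line comparison for 4 members. ISG15 was then -1.31 (adjusted p = 0.000833), IFIT1 -1.15 (adjusted p = 0.000178), SAMD9 -0.75 (adjusted p = 0.0049) and IRF9 -0.62 (adjusted p = 0.0039), so each was called lower in KYSE510. With all libraries, none of these 4 passed. The omitted libraries were picked after members were seen to be high in them, these 4 included. Leaving them out lowers the KYSE510 means of such members, so these p-values are no separate support. The count was then 21 higher and 6 lower in KYSE510, on a background of 55.9% of all genes tested.

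Silencing of HCP5 in KYSE150 changed no member past the threshold by limma, 0 of 31, where 0.499% of all genes tested passed. At an unadjusted p under 0.05 there were 3 members (DTX3L, IFITM3 and IFIT3), or 3 of 31 beside 18.1% of all genes. Voom on the recovered reads called 0 as well, and 5 together with the replicate block (DTX3L and IFITM3 higher, IFIT1, IFIT2 and IFIT3 lower), where 19.0% of all genes passed. The median change was -0.01 over the members and 0.08 over all genes. It was -0.13 and -0.05 with centred libraries, -0.18 and 0.10 with voom, and -0.28 and -0.0034 with voom and median-of-ratios size factors. Its size thus differed with both the scaling and the fit. In each of these settings the median of the members was below that of all genes. Since bulk RNA was measured, fewer cells expressing a gene and less RNA per cell cannot be told apart.

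The 4 IFIT genes had lower values in every silenced KYSE150 library than in any control. IFIT3, a partner that stabilizes IFIT1, was at 4.20, 4.34 and 3.37 RPKM in the controls and at 2.22, 1.56 and 2.51 after silencing. The groups did not overlap, and the log2 change was -0.79 (SE 0.34, adjusted p = 0.259, exact permutation p = 0.1, the smallest that 3 against 3 libraries allow). With the replicate number as a block the adjusted p of IFIT3 was 0.0405, the only member called, on a background of 6.7% of all genes. IFIT1 was at 1.92, 2.07 and 1.56 against 1.28, 1.10 and 1.25 RPKM, a change of -0.45 (SE 0.42, adjusted p = 0.585). IFIT2 was at 2.48, 1.90 and 1.93 against 1.69, 1.28 and 1.5, a change of -0.39 (SE 0.48, adjusted p = 0.696). These standard errors pool the spread within all groups of both lines, so the wide KYSE510 groups enter them. For IFIT1 the SD was 0.263 and 0.0973 RPKM in control and silenced KYSE150, and 0.833 and 1.35 in control and silenced KYSE510. IFIT5 differed least of the 4, at 5.53, 5.16 and 5.45 against 4.85, 4.47 and 5.0 RPKM. These 4 and BST2, with 4 reads in the controls and 2 after silencing, were the members lower without overlap in KYSE150, 5 of 31 beside 5.47% of all genes.

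DTX3L and IFITM3 had higher means after silencing in KYSE150. DTX3L was at 3.88, 3.64 and 3.87 RPKM in the controls and 4.38, 5.54 and 6.28 in the silenced libraries, without overlap (log2 change 0.44, SE 0.12, adjusted p = 0.123). It was the only member higher without overlap, where 13.7% of all genes were. IFITM3 was at 64.5, 46.5 and 103 against 87.4, 92.8 and 124 RPKM, overlapping, with a change of 0.57 (SE 0.24, adjusted p = 0.259). Without KYSE150 control replicate 3, the highest control, its change was 0.87 and passed (adjusted p = 0.0356). Among the transcription factors, STAT2 changed by 0.07, IRF9 by -0.003 and IRF1 by -0.18, with overlapping libraries and adjusted p of 0.843, 1.0 and 0.383.

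In KYSE510 silencing changed no member past the threshold either, 0 of 31, and 0.0393% of all genes tested passed. At an unadjusted p under 0.05 there was 1 member, DTX3L, beside 6.35% of all genes. Voom called 0, and with the replicate block 2 (ISG15 and IFIT2, both higher), where 2.23% of all genes passed. The median change was 0.17 over the members and -0.02 over all genes, and it ranged from -0.09 to 0.36 when single libraries were left out. It was -0.09 without silenced replicate 3 and -0.0045 without control replicate 1, so its sign rests on single libraries. DTX3L was at 8.30, 9.43 and 10.4 RPKM in the controls and 11.7, 10.4 and 12.3 after silencing, without overlap, as 5.22% of all genes were (log2 change 0.28, SE 0.12, adjusted p = 0.763). IFITM2 was at 5.77, 7.18 and 7.66 against 4.43, 4.14 and 6.38 (change -0.44, SE 0.22, adjusted p = 0.851), and IRF1 at 7.0, 8.17 and 8.69 against 6.98, 7.37 and 6.01 (change -0.21, SE 0.11, adjusted p = 0.851). Both overlapped between groups. STAT2 changed by 0.0004 and IRF9 by 0.27, neither past the threshold (adjusted p = 1.0 and 0.960).

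**Figure D4:**
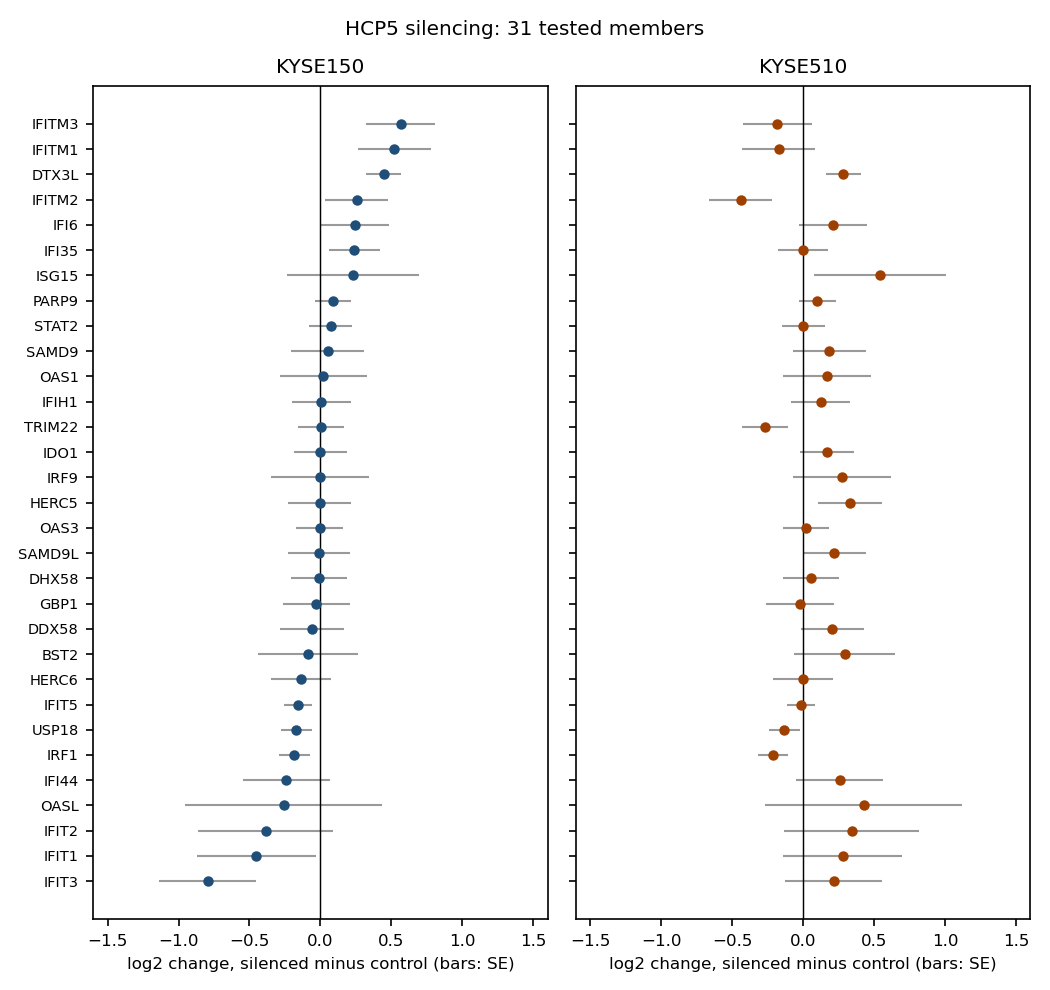
Log2 change after HCP5 silencing (horizontal axis, silenced minus control on log2(RPKM + 0.5)) for the 31 tested members (vertical axis) in KYSE150 and KYSE510; points are limma estimates and bars are standard errors. IFIT3 lies at -0.79 in KYSE150 and 0.21 in KYSE510, and most other bars cross or lie near 0.

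Averaged over the lines, 0 of 31 members passed, where 0.539% of all genes did, and 2 were at an unadjusted p under 0.05, beside 11.5% of all genes. DTX3L was nearest the threshold at 0.36 (SE 0.09, adjusted p = 0.115), higher after silencing in 6 of 6 pairs, with an exact permutation p of 0.1 in each line. On recovered reads with median-of-ratios size factors it passed with an adjusted p of 0.0323, and the range over all alternatives was 0.0030 to 0.306. Voom with the replicate block called DTX3L and ISG15 here, where 7.27% of all genes passed. IRF1 was at -0.20 (SE 0.08, adjusted p = 0.347) and USP18 at -0.15 (SE 0.08, adjusted p = 0.509), each lower in 6 of 6 pairs. PARP9, the partner of DTX3L, was at 0.09 (adjusted p = 0.771).

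The difference in the silencing effect between the lines was tested as an interaction, and 0 of 31 members and 0.0% of all genes passed. The smallest p-values were those of IFITM2 at -0.70 (KYSE510 minus KYSE150, SE 0.31, adjusted p = 0.408), IFITM3 at -0.75 (SE 0.34, adjusted p = 0.410) and IFIT3 at 1.01 (SE 0.48, adjusted p = 0.413). At an unadjusted p under 0.05 there was 1 member, IFITM2, and 2181 of all genes (12.2%). With voom weights and the replicate block together, an alternative chosen after the data were seen, 4 members passed: IFIT1, IFIT2 and IFIT3 in the direction of KYSE510 and IFITM3 in that of KYSE150 (adjusted p from 0.0147 to 0.0240), where 7.59% of all genes did.

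The rest of the pathway was read from lists of ligands, receptors, kinases and regulators. None of the 6 interferon ligand genes in the table was high enough to test. Of 6 receptor genes 3 were higher in KYSE510 controls, where 28.3% of all genes were. Among them was IFNLR1, the lambda receptor chain, at 0, 0 and 0.00895 RPKM in KYSE150 and 1.82, 2.07 and 2.20 in KYSE510. IFNLR1 had reached the filter on KYSE510 libraries alone, so it had to differ. IFNAR2 was 0.44 higher (adjusted p = 0.000944) and IFNAR1 did not pass (-0.08, adjusted p = 0.535). Of the receptor kinases, JAK1 was at 8.80, 8.57 and 8.84 RPKM in KYSE150 controls and 14.7, 16.4 and 17.0 in KYSE510 controls, with no overlap. TYK2, the kinase that binds IFNAR1, did not pass (-0.09, adjusted p = 0.513).

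Of 49 other interferon-induced genes tested, 29 were higher in KYSE510 controls and 10 lower, beside 28.3% and 33.7% of all genes. The median difference over the 49 was 0.55. Some of these genes, such as APOL1, reached the filter on KYSE510 libraries alone and had to differ, and they were not counted apart. APOL1, an interferon-induced apolipoprotein, went from 0.156, 0.111 and 0.0751 to 36.2, 34.2 and 39.1 RPKM (log2 difference 5.91). PARP14 was 2.29 and TRIM38 2.81 higher, and TRIM38 too had reached the filter on KYSE510 libraries alone. CD274, which encodes the immune checkpoint ligand PD-L1, went the other way, from 7.28, 5.82 and 8.88 to 0.182, 0.144 and 0.195 RPKM (log2 difference -3.52). It had reached the filter on KYSE150 libraries alone, so it had to differ. PTPN1 and TRIM27, among 14 negative regulators of which 2 were higher and 3 lower (5 of 14, beside 62.0% of all genes), were at -1.02 and -1.17, and the adaptor TICAM1 at -1.05. Silencing changed 0 genes of each of these lists past the threshold in either line. With the replicate number as a block, KYSE510 still had 0, and KYSE150 had IFNAR1 and IFNGR2 of 6 receptor genes, IFI16 and MYD88 of 13 adaptors, SOCS3 of 14 negative regulators, and 5 of the 49 other induced genes (IFI16, HELZ2 and PARP12 higher, PSME1 and IFI30 lower), where 6.7% of all genes passed. The adjusted p of these ran from 0.0264 (IFI30) to 0.0480 (HELZ2). The nearest of the named genes was IFNAR1 in KYSE150, at 3.40, 3.06 and 3.06 RPKM in controls and 4.20, 4.41 and 5.05 after silencing (log2 change 0.46, adjusted p = 0.0739, and 0.0412 with the replicate number as a block).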

How the data were processed

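RNA-seq values of 12 libraries were used as deposited. The table gives RPKM per gene with summed exon lengths, and the values show no further scaling. The submitters' processing notes name HISAT2, DESeq and the build GRCh38; how reads were assigned to genes and whether strand was used are not given in the sources used here. Within a library the deposited RPKM times the exon length came out as whole steps for 100% of values at a tolerance of 0.01, which gave the reads behind each value and showed that scaling was to reads assigned to genes. Library totals ran from 20035025 to 28202422. The chi-square per gene between replicates was 10.3 or more, up to 36.6, so none was a copy.

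Values were tested on log2(RPKM + 0.5), a scale that understates changes of low genes, with limma 3.58.1 in R 4.3.3 (4 group means, eBayes with trend, 8 residual degrees of freedom), for 17823 genes at 0.5 RPKM or more in at least 3 libraries. Calls used an adjusted p of 0.05 (Benjamini-Hochberg over all genes tested). Groups came from the labels and replicate numbers from the titles. Libraries of a line with the same number deviated together from their group means (correlations of 0.147 to 0.415 in KYSE150 and 0.266 to 0.410 in KYSE510, against -0.385 to 0.184 and -0.264 to -0.026 for different numbers), so the numbers were taken to pair control and silenced libraries, and blocked values are given where they change a call. The fit was also run on simulated reads with the same relative spread for every gene and no shift shared by replicates. That setting leaves out the wide KYSE510 groups, so nothing is drawn from it here. The members and gene lists were chosen with earlier results of these data known. Every member could be named. Full statistics were given for up to 6 members in each direction between control lines with the largest differences, at least 1 RPKM in the higher group and no overlap, for the 3 smallest p-values of each silencing contrast, and for STAT2, IRF9, IRF1 and IRF7. Of the pathway lists, JAK1, TYK2, IFNAR1, IFNAR2 and up to 4 genes in each direction were named; 1 further gene of that rule is not reported here. Alternatives were other pseudocounts, no filter, centred libraries, the replicate block and each library left out. Count models planned for recovered reads were not run because the deposited unit is RPKM, and limma's voom was used on those reads in their place. Promoter windows came from RefSeq on GRCh38.p14.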

Additional observations from a re-analysis of the deposited data

Results flagged for a closer look

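In total 4 members moved in opposite directions after HCP5 silencing in the lines in every pair of libraries with the same replicate number. The share of all genes that did so was not computed, so this count has no background to be read against. IFIT1 was lower in 3 of 3 KYSE150 pairs and higher in 3 of 3 KYSE510 pairs, a difference between the lines of 0.73 on the log2 scale (limma interaction, adjusted p = 0.568, and 0.117 with the replicate number as a block). IFIT2 showed the same directions, also with a difference of 0.73 (adjusted p = 0.611, and 0.117 with the block). In pair 2 of KYSE510 both moved by little, with ratios of silenced to control of 1.04 for IFIT1 and 1.06 for IFIT2. IFITM1 went the other way, higher in 3 of 3 KYSE150 pairs and lower in 3 of 3 KYSE510 pairs, with a difference of -0.69 (adjusted p = 0.428, and 0.160 with the block). BST2 differed by 0.38 (adjusted p = 0.729, and 0.179 with the block), but its KYSE150 values rest on 4 control and 2 silenced reads. None of these differences passed the threshold in limma with or without the block; with voom and the block together those of IFIT1 (adjusted p = 0.0199) and IFIT2 (adjusted p = 0.0147) did.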

How the results depend on the processing

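Of 765 values recomputed under alternatives, 734 kept their direction and their side of the threshold. The replicate numbers were taken to pair the libraries, though no label states a pairing. With the replicate number as a block, 1 member was called in KYSE150 (IFIT3), and the block changed no other call of a member; with voom on recovered reads and the replicate block together the counts were 5 in KYSE150, 2 in KYSE510, 2 in the mean of the lines and 4 in their difference, against 0 in each. Voom with median-of-ratios size factors called 1 member in the mean (DTX3L). The voom fits, leaving out both KYSE510 libraries of replicate 3, and the contrast among silenced libraries were chosen after seeing the data. Leaving out single libraries gave 0 to 1 calls in KYSE150, where the 1 was IFITM3 without control replicate 3, and 23 to 26 calls between control lines. With no filter the median difference between control lines was 0.62 against 1.20. Some changes near 0 turned sign. For STAT2 in KYSE150, reported at 0.07, the change was -0.056 with centred libraries, -0.022 with voom and median-of-ratios size factors, and -0.0058 to 0.22 over single libraries left out. For STAT2 in KYSE510, reported at 0.0004, it was -0.00072 with a pseudocount of 1, -0.0075 with voom, -0.0073 with voom and the block, and -0.14 to 0.098 over libraries left out. Over libraries left out, IRF9 ranged between -0.089 and 0.11 in KYSE150 and between -0.13 and 0.64 in KYSE510, and was 0.028 between lines among silenced libraries. Apart from the effect of fewer libraries, the cause was not tested. edgeR and DESeq2 were not run. With 3 libraries a group, exact tests within a line cannot go below 0.1.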
